A study of Mus musculus with 8 samples.

Results

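The integrated stress response and the unfolded protein response were examined through 10 genes, *Atf3*, *Atf4*, *Ddit3*, *Trib3*, *Chac1*, *Asns*, *Psat1*, *Herpud1*, *Hspa5* and *Xbp1*, in E12.5 mouse brain. All probe sets (groups of short probes that read a transcript) annotated to these symbols and to no other gene were taken, which gave 22 of 45037 probe sets tested and 10 of 18193 genes. RNA was hybridised to 8 Affymetrix Mouse 430_2 arrays, 4 of brains with the genotype *Nestin Cre+, Rest GTi/GTi* (written *Cre+, Rest GTi/GTi*, and knockout in the labels) and 4 of *Rest GTi/GTi* brains (control), all of strain C57/BL6. Embryos of both genotypes carried an inverted gene trap in each copy of *Rest*, the gene of a transcriptional repressor. In *Cre+, Rest GTi/GTi* embryos a *Nestin Cre* transgene, active in neural progenitors and inherited by their progeny, turned the trap back so that the first exon is spliced into it. Cells outside that lineage kept the inverted trap. No control carried Cre, so an effect of Cre and an effect of REST loss cannot be told apart. The labels call the arrays biological replicates, and the sources used here do not say how many embryos contributed to each, so p-values measure only the spread between arrays, which may in part be technical.

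In the integrated stress response, kinases that sense unfolded protein, amino acid shortage, double-stranded RNA or heme shortage phosphorylate the initiation factor eIF2, which slows protein synthesis and favours translation of the transcription factor ATF4. ATF4 and its partners switch on genes of amino acid supply (*Asns*, *Psat1*) and of stress signalling (*Atf3*, *Ddit3*, *Trib3*, *Chac1*), and a long response can end in cell death. In the unfolded protein response, the endoplasmic reticulum sensors ATF6 and IRE1 act beside the kinase PERK to raise chaperones such as *Hspa5* and degradation factors such as *Herpud1*, IRE1 through unconventional splicing of *Xbp1* mRNA. Arrays of this kind read RNA abundance. Phosphorylation of eIF2, translation of *Atf4* and splicing of *Xbp1* were not measured by them.

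Both responses are known to act through short DNA elements in promoters, and the stretches printed here show where letters matching them lie in the windows of *Hspa5*, *Herpud1*, *Asns*, *Chac1* and *Atf3*. Windows from 250 bases before to 50 bases after the annotated start came from RefSeq (GRCm38.p6), and all 10 genes were found there. Each stretch holds 60 bases, runs 5′ to 3′ on the strand of its gene, and shows the matching letters in capitals.
Hspa5, endoplasmic reticulum stress response element, chr2:34772005-34772064, plus strand: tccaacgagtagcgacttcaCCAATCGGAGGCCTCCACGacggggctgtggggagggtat
Herpud1, endoplasmic reticulum stress response element II, chr8:94386353-94386412, plus strand: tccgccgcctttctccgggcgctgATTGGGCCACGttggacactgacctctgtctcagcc
Asns, C/EBP-ATF response element, chr6:7693210-7693269, minus strand: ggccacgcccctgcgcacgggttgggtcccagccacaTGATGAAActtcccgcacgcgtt
Chac1, C/EBP-ATF response element, chr2:119351023-119351082, plus strand: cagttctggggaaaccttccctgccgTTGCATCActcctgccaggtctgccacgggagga
Atf3, C/EBP-ATF response element, chr1:191183410-191183469, minus strand: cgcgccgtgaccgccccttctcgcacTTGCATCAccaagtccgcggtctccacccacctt
Both strands were searched for each motif. The endoplasmic reticulum stress response element, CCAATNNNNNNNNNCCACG, was held by 0.119% of 32851 promoter windows in the table, and of the 10 genes by *Hspa5*. Its form II, ATTGG and CCACG with 1 base of any kind between them, was held by 0.0365% of the windows and here by *Herpud1*. The C/EBP-ATF response element, TGATGNAA, was held by 3.97% of the windows and here by *Atf3*, *Trib3*, *Chac1*, *Asns* and *Herpud1*. The unfolded protein response element, TGACGTG, was held by 2.01% of the windows and here by *Hspa5*. The cyclic AMP response element, TGACGTCA, whose letters overlap those of the preceding motif, was held by 1.79% of the windows and by none of the 10 genes. These matches describe letters in a window and were not tested as sites.

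Some properties of the arrays bear on what follows. *Rest* itself read 163.1, 216.7, 84.4 and 133.7 in knockouts 1 to 4 against 170.1, 271.8, 211.1 and 198.3 in controls 1 to 4 (log2 fold change -0.51, standard error 0.25, adjusted p = 0.758 from limma). Knockout replicate 2 lay above 3 of the 4 controls, and where the probes lie relative to the trap was not analysed here. Markers of mesenchyme (12 of 12 measured) had sums of 10319 and 14501 for knockout replicates 1 and 2, 663 and 847 for replicates 4 and 3 and 582 to 1508 for controls. Those of microglia and macrophages (12 genes, 9 of them called higher) summed to 2544 to 2965 against 954 to 1160. Erythroid markers (7 of 8 measured) summed to 33222 on knockout replicate 1, 22182 to 25388 on replicates 2 to 4 and 22287 to 27888 on controls. Neural progenitor markers summed to 30570 to 34399 against 33153 to 33921 and early neuronal markers to 23792 to 31135 against 27604 to 29832, so the labelled tissue had its markers on all arrays. Hindbrain *Hox* genes summed to 1070 to 1730 in knockout replicates 3 and 4, 69 to 519 in replicates 1 and 2 and 89 to 656 in controls, and *Hoxb5* lay below 16 in all controls. The female transcript *Xist* read 7875 and 8247 on control replicates 2 and 3 and at most 57.8 elsewhere, where the Y-linked *Eif2s3y* read 627.2 to 845.3, so that 2 controls and all knockouts carried male RNA.

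At an adjusted p under 0.05 from limma, none of the 10 genes passed in either direction, by its brightest probe set or by any other. Over all 18193 genes 0.225% passed that test (0.214% higher, 0.011% lower), and over all probe sets 0.14% did (0.133% higher, 0.00666% lower). At an unadjusted p under 0.05, limma gave 3 of the 22 probe sets, 2 higher (both of *Asns*) and 1 lower (*Herpud1*), against 6.87% of all probe sets (3.22% higher, 3.65% lower). The t-test of the methods, with equal variances, gave 0 of the 10 genes after adjustment, where 0.077% of all genes passed, and 2 without it (*Asns* and *Herpud1*), where 6.89% did. Every knockout array lay above every control on 2 of the 22 probe sets, 1 of *Asns* and 1 of *Psat1*, where 1.87% of all probe sets did, and below on none, where 2.14% did (4% for either). By brightest probe set, 1 of the 10 genes stood above without overlap, where 2.48% of all genes did, and none below, where 2.15% did. Of the 10 genes, 7 had a log2 fold change above 0 and 3 below, with a median of 0.08, and over all genes 49.5% lay above 0 with a median of -0.0014. The scaling also moved the other genes: with arrays scaled to a common median 6 of the 10 and 37% of all genes lay above 0 (median of all genes -0.0428), and without scaling 9 of the 10 and 67% of all genes did (median 0.0505). With knockout replicates 3 and 4 alone 5 of the 10 and 50.6% of all genes did. Values below are normalized intensities, and fold changes are *Cre+, Rest GTi/GTi* minus control on the log2 scale after adding 16 to the intensity, which makes those of dim probe sets smaller than the ratio of intensities. In whole brain, fewer cells of a type and less RNA per cell cannot be told apart.

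**Figure D1:**
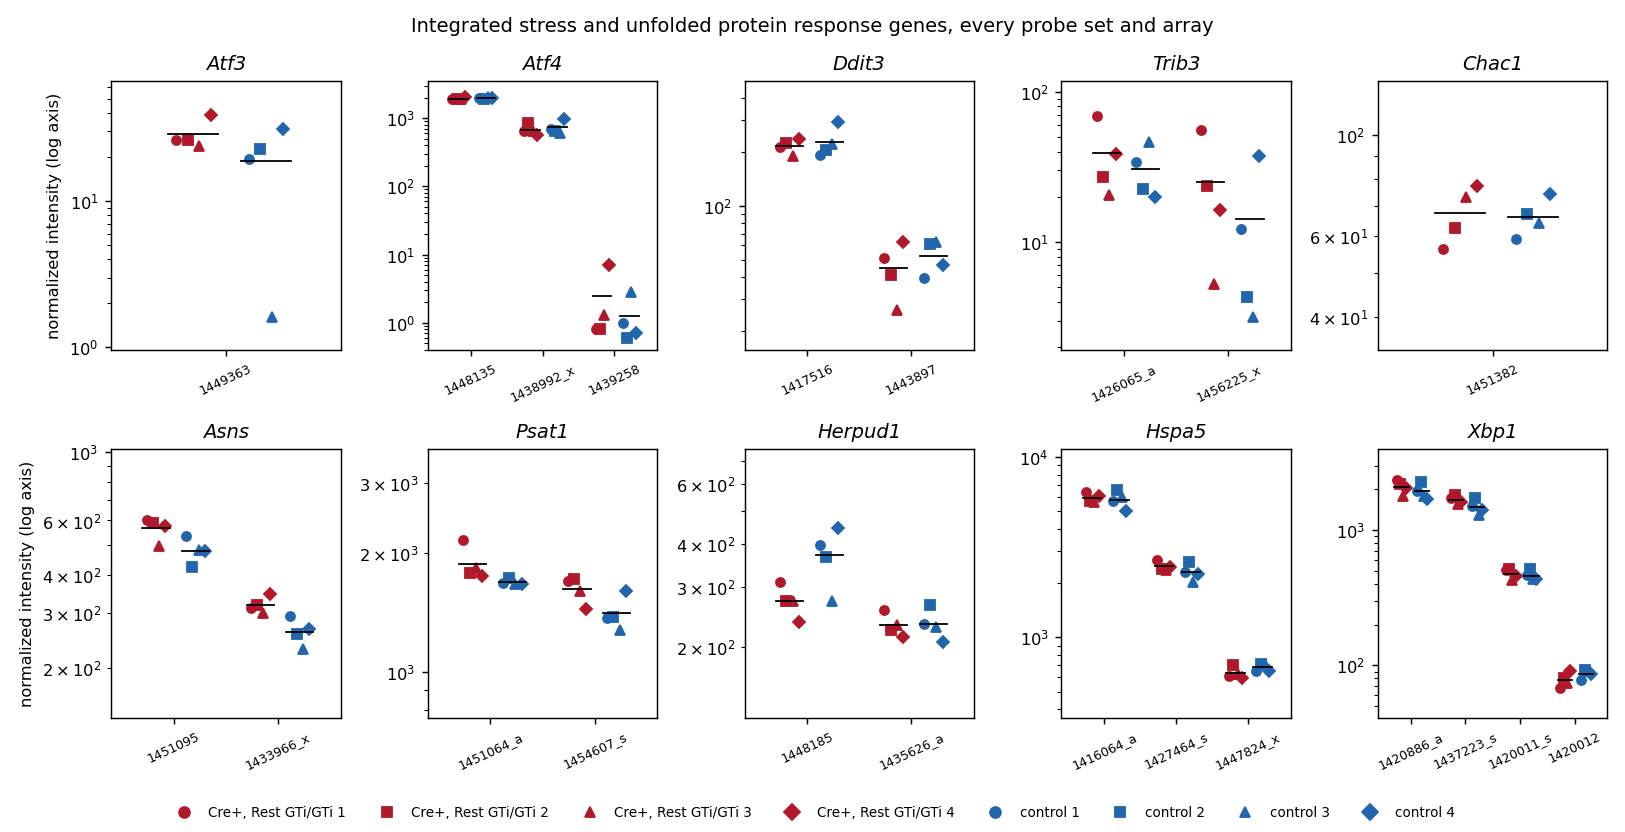
Normalized intensity (log axis) of each of 22 probe sets of the 10 genes on each array, by gene, with probe set numbers on the horizontal axis. Symbols mark replicates (red, *Cre+, Rest GTi/GTi*; blue, control) and lines the means of 4 arrays, and the groups separate only for the second probe set of *Asns* and the first of *Psat1*.

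*Atf4*, the transcription factor at the centre of the integrated stress response, read 1881.9, 1906.9, 1883.3 and 2052.7 on knockout replicates 1 to 4 and 1990.7, 1918.0, 2016.2 and 1995.7 on control replicates 1 to 4, by its brightest probe set. The groups overlapped, and knockout replicate 4 stood above the other arrays of both genotypes. The log2 fold change was -0.04 (standard error 0.06, 95% interval -0.18 to 0.11, adjusted p = 0.957 from limma), and its interval runs from 0.883 to 1.08 as a fold. This was the narrowest interval among the 22 probe sets. A further probe set, which can hybridise with several transcripts, gave 567.1 to 856.2 against 611.1 to 964.9 and a log2 fold change of -0.10. The remaining *Atf4* probe set read 0.8 to 7.0 against 0.6 to 2.8, below the added constant, and carries no usable difference.

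*Ddit3*, which encodes CHOP, a transcription factor of the pro-apoptotic arm, read 212.8, 225.0, 190.2 and 236.8 against 193.3, 206.1, 221.8 and 292.6 on the controls. The highest value was on control replicate 4 and the groups overlapped. Its log2 fold change was -0.06 (standard error 0.13, 95% interval -0.36 to 0.23, adjusted p = 0.968 from limma). A dimmer probe set of *Ddit3* gave 26.1 to 62.5 against 39.3 to 63.1 and a log2 fold change of -0.19, with an interval from -0.65 to 0.27.

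*Atf3*, a stress-induced repressor that is also an immediate early gene and a target of p53, was dim. Its only probe set read 26.3, 26.3, 23.8 and 38.9 against 19.3, 22.6, 1.6 and 31.3. Control replicate 3 lay far below the other arrays, and control replicate 4 lay above 3 of the 4 knockout arrays. The log2 fold change of 0.45 (standard error 0.28, 95% interval -0.20 to 1.09, adjusted p = 0.82 from limma) was the highest of the 10 genes. It became 0.15 without control replicate 3 and 0.12 against the 2 male controls.

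*Trib3*, a pseudokinase induced by ATF4 and CHOP that dampens both, read 69.2, 27.2, 20.5 and 38.6 against 34.3, 22.6, 46.0 and 20. knockout replicate 1 was the highest array and replicate 3 lay at the level of the lowest control. The log2 fold change was 0.19 (standard error 0.28, 95% interval -0.44 to 0.82) and became -0.05 without knockout replicate 1. A further probe set read 55.4, 23.5, 5.3 and 16.4 against 12.2, 4.3, 3.2 and 37.4, again with replicate 1 highest, and gave 0.43 with an interval from -0.53 to 1.4. The upper ends of these intervals stand for folds of 1.76 and 2.64.

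*Chac1*, an enzyme that degrades glutathione and a sensitive target of ATF4, read 56.4, 62.6, 73.3 and 77.3 against 59.1, 67.2, 64.2 and 74.5. The groups covered the same range. A log2 fold change of 0.02 resulted (standard error 0.10, 95% interval -0.22 to 0.25, adjusted p = 0.994 from limma), and as a fold the interval runs from 0.861 to 1.19. *Chac1*, *Trib3* and *Atf3*, whose windows hold a C/EBP-ATF match as *Asns* does, had estimates from 0.02 to 0.45, and none passed the test. *Herpud1*, whose window also holds a match, went the other way, at -0.41 by its brightest probe set and -0.01 by its second, and did not pass either.

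*Asns*, the asparagine synthetase, gave the largest positive estimates relative to their standard errors. By its brightest probe set it read 602.2, 587.5, 496.2 and 577.8 on knockout replicates 1 to 4 and 534.3, 422.5, 480.7 and 478.2 on the controls. knockout replicate 3 lay below control replicate 1, and the other 3 lay above every control. The log2 fold change was 0.23 (standard error 0.09, 95% interval 0.02 to 0.45, adjusted p = 0.693 from limma, two-sided exact permutation p = 0.0571). The second probe set read 311.3, 320.1, 300.0 and 346.2 against 293.1, 257.8, 229.1 and 266.8, so that the groups did not overlap. It gave 0.28 (standard error 0.09, 95% interval 0.07 to 0.48, adjusted p = 0.591 from limma), with an exact permutation p of 0.0286, the smallest that 4 arrays against 4 allow. Any probe set without overlap gives this p, so it adds nothing to the lack of overlap. Of all probe sets 4% did not overlap, the brightest of *Psat1* among them. Against the 2 male controls the estimates were 0.15 and 0.18, and they were 0.16 and 0.29 when knockout replicates 3 and 4 stood alone.

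*Psat1*, the phosphoserine aminotransferase of serine synthesis, read 2158.2, 1774.7, 1828.9 and 1743.3 against 1676.6, 1731.6, 1669.2 and 1666.1 by its brightest probe set. All knockout arrays lay above all controls, replicate 4 by the least and replicate 1 by the most. This gave a log2 fold change of 0.15 (standard error 0.08, 95% interval -0.04 to 0.33, adjusted p = 0.791 from limma), and it was 0.08 without knockout replicate 1. The second probe set gave 1444.7 to 1721.9 against 1274.0 to 1603.7 and a log2 fold change of 0.20, with the groups overlapping. The other enzymes of serine synthesis are given beside it. *Phgdh*, which catalyses the first step and was chosen after its value was seen, gave 0.05 (95% interval -0.11 to 0.21). *Psph*, which catalyses the last step, read 344.2, 306.8, 376.4 and 335.3 against 368.6, 446.2, 428.4 and 446.0, a log2 fold change of -0.30 (standard error 0.09, 95% interval -0.50 to -0.09, adjusted p = 0.565 from limma). knockout replicate 3 lay above control replicate 1 for *Psph*, and the other 3 lay below every control.

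**Figure D2:**
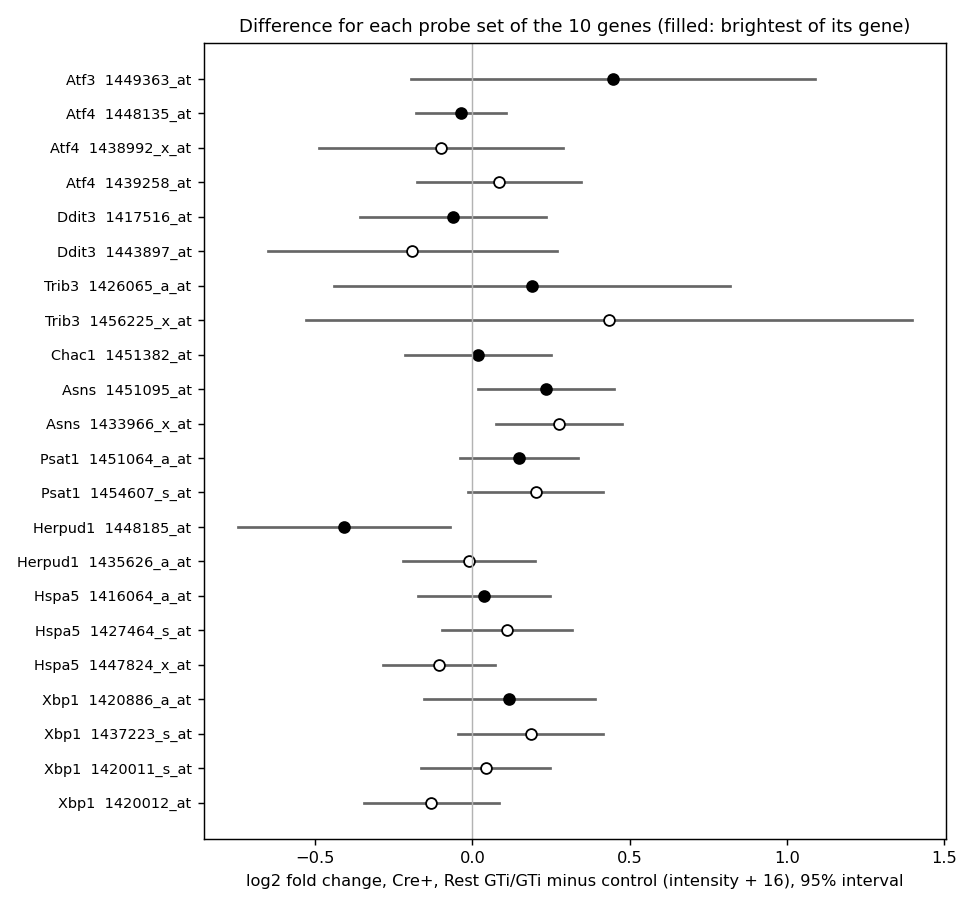
Log2 fold change (*Cre+, Rest GTi/GTi* minus control) of each of 22 probe sets, with its 95% interval from limma, not adjusted for the number of tests. Filled points mark the brightest probe set of a gene. The intervals of *Asns* lie above 0 on both probe sets and that of *Herpud1* below 0 on 1 of 2, and all others span 0.

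*Herpud1*, a membrane protein of endoplasmic-reticulum-associated degradation, was read differently by its probe sets. The brighter read 310.6, 272.8, 272.7 and 236.3 against 397.2, 368.1, 273.8 and 446.3. Control replicate 3 lay within the range of the knockout arrays and the other 3 controls lay above it. Its log2 fold change was -0.41 (standard error 0.15, 95% interval -0.74 to -0.07, adjusted p = 0.665 from limma, two-sided exact permutation p = 0.0571). The second probe set read 256.4, 225.4, 231.8 and 214.9 against 234.4, 266.5, 228.9 and 207.5, with a log2 fold change of -0.01 and an interval from -0.22 to 0.20. With the mean of the probe sets the estimate was -0.21. The brighter probe set gave -0.60 against the 2 male controls and -0.54 without control replicate 3, and neither passed.

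*Hspa5*, which encodes the chaperone BiP, read 6380.2, 5672.8, 5654.5 and 6087.6 against 5700.3, 6528.4, 5973.9 and 5055.7. The highest and the lowest array were both controls. A log2 fold change of 0.04 resulted (standard error 0.09, 95% interval -0.17 to 0.25, adjusted p = 0.977 from limma), and as a fold the interval runs from 0.886 to 1.19. The other probe sets of *Hspa5* gave 0.11 and -0.11. The window of *Hspa5* holds the stress response element printed above, and that of *Herpud1* its form II.

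*Xbp1*, the transcription factor downstream of IRE1, had 4 probe sets. The brightest read 2345.2, 2209.4, 1784.6 and 2056.5 against 1956.8, 2281.5, 1803.4 and 1699.2, with knockout replicate 3 and control replicate 4 lowest in their groups. This gave a log2 fold change of 0.12 (standard error 0.12, 95% interval -0.15 to 0.39, adjusted p = 0.907 from limma), and it was -0.0056 with knockout replicates 3 and 4 alone. The other probe sets gave 0.19, 0.04 and -0.13, with every interval spanning 0. The probe sets read total *Xbp1* here, since the spliced form was not separated from the unspliced.

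No array had all 10 genes on the same side of the control mean. Averaged over the 10 genes, the log2 difference from the control mean was 0.18, 0.03, -0.06 and 0.12 in knockouts 1 to 4 and 0.02, 0.01, -0.09 and 0.06 in controls 1 to 4. knockout replicate 1 held the highest value for 4 of the 10 genes and replicate 4 for 3, while the controls held it for 3. knockout replicate 4 lay above the control mean for 9 genes and replicate 3 for 4. On control replicate 3 only 4 genes lay above that mean, and on each of the other controls 6 did.

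**Figure D3:**
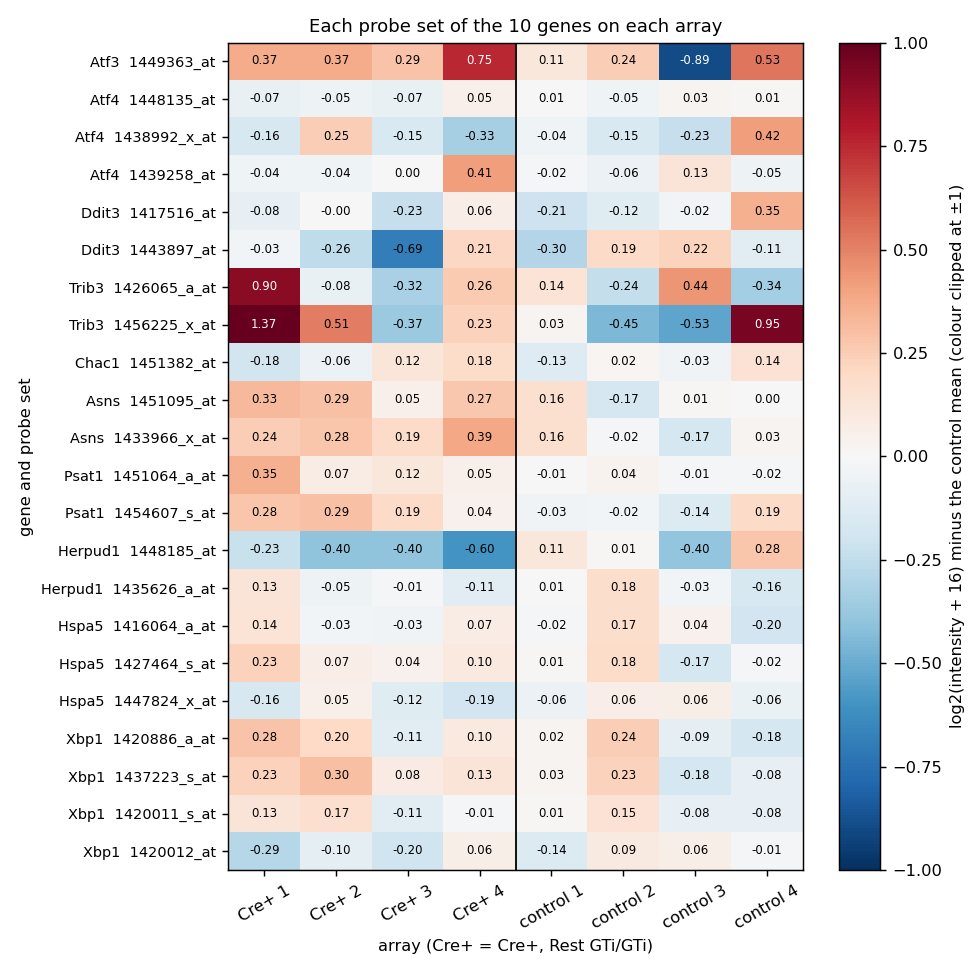
Log2 of the intensity plus 16 on each array minus the mean of the 4 controls, for 22 probe sets (rows) and 8 arrays (columns), with the value in each cell. Red is above and blue below the control mean. Columns of the knockout arrays mix both colours, and in those columns the rows of a gene share their sign for *Asns* and *Psat1* but not for *Herpud1* or *Atf4*.

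The wider pathways were read by 147 further genes in 10 lists, and limma called none of them. The t-test of the methods with equal variances, which called 14 of all genes, also called 0 of them, and without adjustment limma gave 7, 5 higher and 2 lower, against 6.97% of all genes (3.94% higher, 3.03% lower). The groups did not overlap for 6 of the 147 (*Sesn2*, *Ier3*, *Canx*, *Sec61a1*, *Eif2b1* and *Dusp1*), where 4.64% of all genes did not. The medians of all 10 lists lay above 0, between 0.02 and 0.10. Once arrays were scaled to a common median, 5 of them lay below 0 and they ran from -0.05 to 0.02, with the median of all genes at -0.0428. Among 15 sensors and regulators of the integrated stress response, 8 lay above 0 and 7 below, with a median log2 fold change of 0.04. The 4 eIF2 kinases, chosen after their values were seen, gave -0.13 for *Eif2ak1* (HRI), 0.15 for *Eif2ak2* (PKR), 0.09 for *Eif2ak3* (PERK) and 0.08 for *Eif2ak4* (GCN2). *Eif2b1*, a subunit of the exchange factor that phosphorylated eIF2 blocks, read 414.5 to 454.6 against 461.4 to 485.7, without overlap, and gave -0.11 (95% interval -0.25 to 0.04). *Dnajc3*, an inhibitor of eIF2 kinases, gave 0.15 by its brightest probe set and 0.26, -0.12, 0.19 and -0.14 by the others. *Gcn1*, an activator of GCN2, gave -0.13 by its brightest and 0.04, -0.03, -0.06 and 0.14 by the others. *Ppp1r15a*, the stress-induced phosphatase subunit GADD34, gave 0.13.

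Of 20 genes of amino acid synthesis, folate metabolism and transport, 12 lay above 0 and 8 below, with a median of 0.06. The amino acid transporters *Slc7a5* and *Slc7a1* gave 0.19 and 0.17, and the aspartate aminotransferase *Got1* gave -0.11. Other probe sets of *Slc7a1* gave 0.04 and -0.13. Of 13 genes for tRNA synthetases and tRNA export, 8 lay above 0 with a median of 0.02, and they ran from -0.10 for *Cars* to 0.15 for *Xpot*, with *Nars* at 0.10 and *Gars* at 0.07.

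Among 14 stress effectors downstream of ATF4 or CHOP, 10 lay above 0 with a median of 0.03, and 1 lay apart. *Sesn2*, a sestrin induced both by ATF4 and by p53, read 147.9, 126.0, 123.8 and 135.1 against 85.2, 76.9, 66.2 and 56.4, so that every knockout array stood above every control. Its log2 fold change was 0.78 (standard error 0.11, 95% interval 0.52 to 1.04, adjusted p = 0.0628 from limma), and a second probe set gave 0.67. Calls came from limma with trend and robust moderation, after leaving out dim probe sets, with a constant of 50 and from the mean of its probe sets (adjusted p = 0.0364, 0.0395, 0.0447 and 0.05 from limma), while the other alternatives gave no call and an adjusted p of up to 0.67 from limma. *Cdkn1a*, a cell cycle inhibitor and also a p53 target, read 356.1 to 446.4 against 145.2 to 175.9 on the same arrays. The part of p53 in the value of *Sesn2* was not tested on these arrays. *Bbc3*, which encodes the BH3 protein PUMA and is reached by p53 and by CHOP, gave 0.13 (95% interval -0.04 to 0.31), and *Tnfrsf10b*, a death receptor, was dim (14.9 to 22.1 against 1.4 to 21.4). *Ddit4*, a further gene shared by p53 and ATF4 and chosen after its value was seen, gave 0.0003 with an interval from -0.21 to 0.21.

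**Figure D4:**
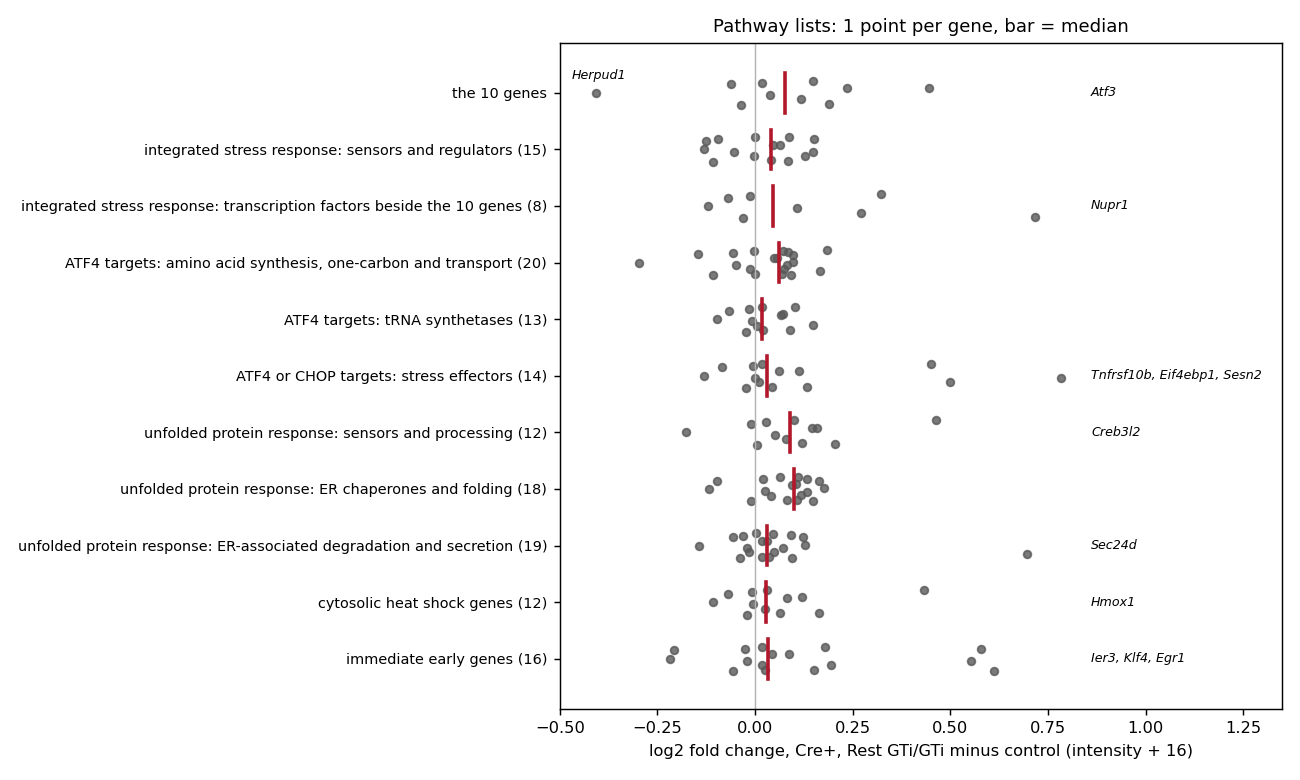
Log2 fold change (*Cre+, Rest GTi/GTi* minus control) of each gene, by its brightest probe set, for the 10 genes and for 10 further lists (number measured in parentheses). Each point is a gene and each red bar the median of its list. The medians lie between 0.02 and 0.10 (with arrays scaled to a common median, 5 of the 10 further lists and the median of all genes lie below 0), and *Sesn2* is the gene farthest to the right.

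On the side of the unfolded protein response, chaperones and folding enzymes had 15 of 18 above 0 with a median of 0.10, and sensors and their processing enzymes had 10 of 12 with a median of 0.09. None of either list was called, and over all genes 49.5% lay above 0. Taking knockout replicates 3 and 4 alone, the medians were 0.05 and 0.03, and with arrays scaled to a common median both were 0.02. In that scaling 11 of 18 and 7 of 12 lay above 0, where 37% of all genes did, with a median of -0.0428. The mean of the chaperone list was 0.15, 0.06, 0.0007 and 0.08 in knockouts 1 to 4 and -0.05 to 0.08 in controls, so that control replicate 2 lay above 3 of the 4. *Pdia3*, a disulfide isomerase, gave 0.16 (95% interval -0.01 to 0.34) and *Hyou1*, a chaperone of the HSP70 family, 0.18 by its brightest probe set but -0.20 and -0.28 by the others. *Canx*, which encodes the lectin chaperone calnexin, read 3629.3 to 3927.4 against 3349.9 to 3613.1 without overlap and gave 0.11 (95% interval -0.03 to 0.25), and *Dnajb11*, a co-chaperone of BiP, gave 0.15. The sensors *Ern1* (IRE1) and *Atf6*, chosen after their values were seen, gave -0.01 and 0.03. The transcription factor *Creb3* gave 0.15 by its brightest probe set and -0.02, -0.13 and 0.20 by the others. Its probe set at -0.13 read 255.7 to 272.9 against 279.9 to 311.5, without overlap. *Wfs1*, a membrane protein that restrains ATF6, gave -0.18, and *Ern2* was below the added constant on every array.

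Of 19 genes of degradation and secretion, 13 lay above 0 with a median of 0.03. *Sec61a1* and *Sec61b*, subunits of the translocon, gave 0.13 and 0.09, the former with 1632.7 to 1713.6 against 1439.9 to 1578.8 and no overlap. By its other probe sets *Sec61a1* gave 0.12, 0.02, 0.14, -0.05 and -0.10, with the groups overlapping on each. *Sec63*, which works with the translocon, gave -0.14 by its brightest probe set and -0.09, -0.10, 0.004 and 0.09 by the others. *Sec24d*, a subunit of the COPII coat that carries procollagen, read 122.8, 199.5, 55.1 and 63.6 against 48.4 to 60.9. It gave 0.70 (standard error 0.32, 95% interval -0.04 to 1.43, adjusted p = 0.744 from limma) over all arrays and 0.10 with knockout replicates 3 and 4 alone.

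The arrays high for *Sec24d* were those high for mesenchyme markers, knockout replicates 1 and 2. Several other genes shared this pattern by their brightest probe set. Endothelial markers (7 genes) also summed highest on these arrays, 1496 and 1237 against 904 and 984 in knockouts 3 and 4 and 825 to 908 in controls, and so did choroid plexus markers (5 genes), 7444 and 7324 against 2002 and 2319 and 2155 to 5339. *Creb3l2*, a transcription factor of secretory cells related to ATF6, read 139.0, 270.1, 75.6 and 98.4 against 81.8 to 110.7. *Eif4ebp1*, a repressor of translation and target of ATF4, read 270.6, 252.4, 132.2 and 148.4 against 103.5 to 186.7. With replicates 3 and 4 alone their log2 fold changes went from 0.46 to -0.06 and from 0.50 to 0.08. Those of the transcription factors *Cebpb*, *Nfe2l2* and *Klf4* went from 0.32, 0.27 and 0.58 to -0.01, -0.04 and 0.18. A second *Klf4* probe set read 98.8, 159.8, 78.0 and 80.6 against 66.4 to 76.4, without overlap, and gave 0.40. The dimmest of *Eif4ebp1* read 58.1, 32.6, 38.6 and 48.2 against 21.0 to 43.8. The second of *Cebpb* read 20.5, 16.2, 18.3 and 17.3 against 2.3 to 23.8. The remaining *Eif4ebp1* probe set and the second of *Creb3l2* were highest on knockout replicates 1 and 2. The values of the mesenchymal collagen *Col3a1* were 4864.4, 4571.2, 231.7 and 134.8 in knockouts 1 to 4. The part of mesenchyme, endothelium or choroid plexus in these values was not tested.

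**Figure D5:**
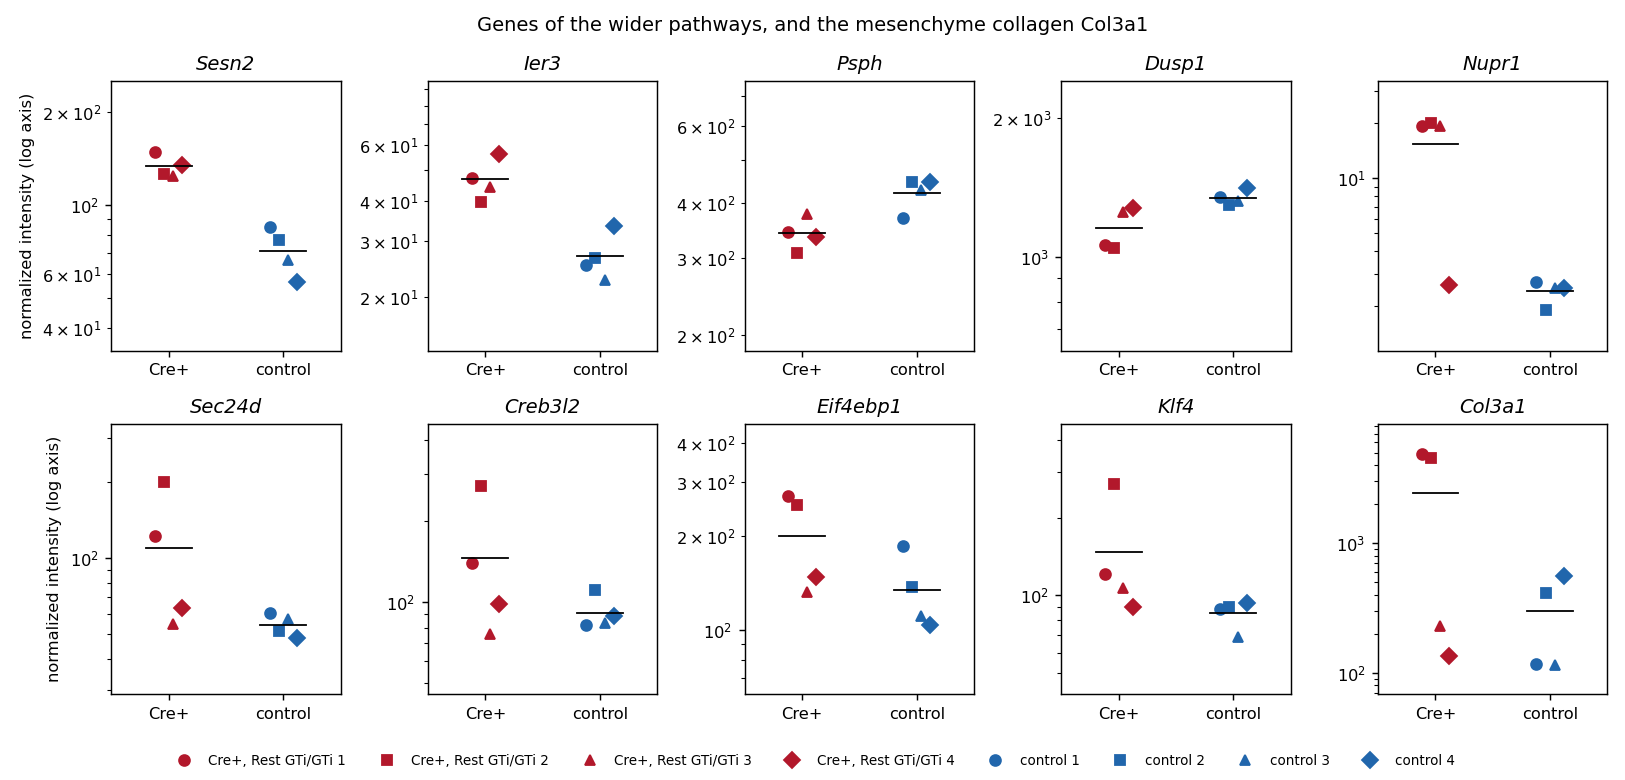
Normalized intensity (log axis) of 9 genes of the wider pathways and of *Col3a1* on each array, with symbols for replicates and lines for the means of 4 arrays per genotype. The genotypes separate for *Sesn2*, *Ier3* and *Dusp1*. knockout replicates 1 and 2 are the highest 2 arrays for *Sec24d*, *Creb3l2*, *Eif4ebp1*, *Klf4* and *Col3a1*.

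*Nupr1*, a small chromatin protein induced by ATF4, read 19.2, 20, 19.3 and 2.6 on knockout replicates 1 to 4 and 1.9 to 2.7 on the controls, with replicate 4 at the level of the controls. It gave 0.72 (standard error 0.20, 95% interval 0.25 to 1.18, adjusted p = 0.51 from limma), and it was the only other of the 147 genes called under any alternative, with 0.95 and adjusted p = 0.00986 from limma without knockout replicate 4. Its controls lay below the added constant, so the size of the difference cannot be read. A second probe set of *Nupr1* read 13.8, 15.2, 5.8 and 0.9 against 0.4 to 1.5, below the added constant on every array, and gave 0.52. Of the list of 8 transcription factors that holds *Nupr1*, 4 lay above 0 and 4 below, with a median of 0.05 and *Crebrf* at -0.12.

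Heat shock and immediate early genes were read beside these pathways, since they mark cytosolic stress and handling of tissue. Of 12 heat shock genes, 7 lay above 0 with a median of 0.03. *Hmox1*, a heme oxygenase, was dim (23.8 to 36.9 against 10.8 to 24.4) and gave 0.43 (95% interval 0.08 to 0.78, adjusted p = 0.644 from limma), while *Hspe1*, *Dnaja1* and *Hspa1a* gave 0.12, -0.07 and -0.11. Of 16 immediate early genes, 11 lay above 0 with a median of 0.03. *Ier3*, a regulator of survival, read 47.4, 39.8, 44.5 and 56.2 against 25.3, 26.5, 22.6 and 33.4 without overlap and gave 0.55 (standard error 0.11, adjusted p = 0.212 from limma). *Dusp1*, a MAP kinase phosphatase, read 1060.6, 1047.0, 1251.5 and 1277.4 against 1297.4 to 1413.3, also without overlap and in the other direction. It gave -0.22 (standard error 0.09, adjusted p = 0.693 from limma), and -0.09 with knockout replicates 3 and 4 alone. *Egr1* read 141.6, 85.5, 49.2 and 53.9 against 35.8 to 51.0 and gave 0.61, and 0.16 with knockout replicates 3 and 4 alone. *Fos*, chosen after its value was seen, gave -0.06 (95% interval -0.82 to 0.70). The markers of microglia given above summed higher on every knockout array than on any control, and their part in *Ier3*, *Asns* and the other values was not tested.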

How the data were processed

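The authors extracted RNA with Trizol and columns and hybridised it to Affymetrix Mouse 430_2 arrays. Their methods state RMA normalization with AffyPLM and a log2 transformation. The deposited values are intensity values on a linear scale, 1 per probe set, with array medians from 40.9 to 68.0, which RMA output would not have. The step that made them is not given in the sources used here. Arrays have no read depth, and the number of arrays limits the precision.

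After 64 Affymetrix controls were left out of 45101 probe sets, intensities were quantile-normalized, 16 was added and log2 taken. Over the 8 arrays, 30.6% of probe sets averaged under 16. Genotypes were compared with limma 3.58.1 in R 4.3.3 (lmFit, eBayes), adjusted by Benjamini-Hochberg over 45037 probe sets at 0.05. The fit was also run on simulated arrays with known changes, and how often it calls small changes is not reported here. Intervals are at 95%, and exact permutation tests used all splits of the 8 arrays. The brightest probe set stood for each gene in counts. Gene names came from the platform annotation, and listed genes that it pairs with no probe set are not analysed here.

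The 10 genes, the lists and the tests were chosen with earlier results of these data known. Named genes were all 10, up to 4 of each list with the smallest p, any called gene, and checks of the arrays. Genes outside this rule are marked in the text. Alternatives were the methods' t-test with equal or unequal variances, trend and robust moderation, leaving out dim probe sets, scaling to a common median or not at all, constants of 1 and 50, the mean of probe sets, leaving out probe sets ending in s_at or x_at, a replicate block, *Eif2s3y* as a covariate, the 2 male controls, *Cre+, Rest GTi/GTi* replicates 3 and 4 alone and leaving out each array. The numbers of the replicates were checked as pairs.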

Additional observations from a re-analysis of the deposited data

Results flagged for a closer look

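In groups of 4 arrays, an array was singled out where its gap to the nearest other, as a share of the range of its group, passed Dixon's 95% critical value, and in those singled out this share was 0.837 or more. Of 124 groups looked at, 6 were singled out, and chance gives about 1 in 20. *Atf4* read 2052.7 on knockout replicate 4 by its brightest probe set, against 1881.9 to 1906.9 on the other 3, and 7 by a probe set below the added constant, against 0.8 to 1.3. *Psat1* read 1731.6 on control replicate 2, against 1666.1 to 1676.6 on the other controls. *Nupr1* read 2.6 on knockout replicate 4, against 19.2 to 20 on the other 3. *Got1* read 736.3 on control replicate 2, against 654.1 to 657. *Tnfrsf10b* read 22.1 on knockout replicate 4, against 14.9 to 15.8. Of these 6, 4 fell on knockout replicate 4 and 2 on control replicate 2.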

How the results depend on the processing

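None of the 10 genes was called in either direction under any of the 22 alternatives. This carries little for the t-test with unequal variances, the replicate block and knockout replicates 3 and 4 alone, which called 0 of all genes, and for unscaled arrays, which called 2, while the other alternatives called 7 to 50. Of the 147 other pathway genes, 0 were called lower under any, and 1 was called higher (*Sesn2*) with trend and robust moderation, without dim probe sets, with a constant of 50 and with the mean of probe sets. Leaving out each array in turn gave 0 to 1 called higher, *Nupr1* without knockout replicate 4. Over the estimates for single genes, probe sets and list medians, 1492 kept their direction and their call or moved less than the spread, 5 gained a call, 48 list medians moved and 37 estimates changed sign.

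With arrays scaled to a common median, *Hspa5* was at -0.036, *Gars* at -0.0037 and the *Xbp1* probe set that read 425.4 to 518.5 at -0.0098. Without scaling, *Atf4* was at 0.0044, *Ddit3* at 0.0091 and the second probe set of *Herpud1* at 0.059. With the mean of probe sets, *Cars* was at 0.020 and *Hyou1* at -0.10. Without probe sets that read several transcripts, *Creb3* was at -0.13, *Hyou1* at -0.20 and *Hspe1* at -0.0050. With *Eif2s3y* as a covariate, *Hspa1a* was at 0.088 and the second probe sets of *Herpud1*, *Ddit3* and *Trib3* at 0.069, 0.018 and -0.088. Against the 2 male controls these were at 0.073, 0.066, 0.014 and -0.054. With knockout replicates 3 and 4 alone, *Trib3* was at -0.031 and its second probe set at -0.072, *Xbp1* at -0.0056 and that further probe set at -0.062, *Cebpb* at -0.011, *Nfe2l2* at -0.044 and *Creb3l2* at -0.058. Leaving out each array in turn moved *Ddit3* from -0.13 to 0.056, *Trib3* from -0.047 to 0.36, *Chac1* from -0.040 to 0.082, *Hspa5* from -0.028 to 0.095, the second probe set of *Herpud1* from -0.063 to 0.049, and the other probe sets of *Atf4* from -0.22 to 0.040 and from -0.026 to 0.13. The causes were not tested.

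The shared replicate numbers did not pair the arrays: residuals of same-numbered arrays correlated at -0.13 to 0.0068 and those of other pairs at -0.06 to 0.11. With the replicate number as a block, 0 of the 10 genes and 0 of the other 147 were called, and over all genes 0 in place of 41. *Asns* kept 0.23 with an adjusted p of 0.803 from limma. Signal over background limited *Atf3*, *Trib3*, *Nupr1* and *Tnfrsf10b*, which lay near the added constant of 16.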
